A study of Mus musculus with 18 samples.

Results

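The 7 T-box genes studied in heart development, Tbx1, Tbx2, Tbx3, Tbx4, Tbx5, Tbx18 and Tbx20, were followed through a directed cardiac differentiation of mouse embryonic stem cells in which the Hedgehog transcription factor GLI1 was induced for a day. They were taken by symbol from the deposited count table, in which 7 of 23337 genes are these members, and all 7 passed the filter on low counts. Every library came from a single cell line, GLI1-FTA, whose labelled strain is A2Lox.cre. Cells of the GLI1 overexpression (OE) groups, called pulsed below, received doxycycline at 500 ng/ml for 24 hours, from day 5 (D5) to day 6 (D6), and were washed afterwards. Control cells are labelled untreated. No group received doxycycline without the inducible gene, so an effect of the drug and an effect of GLI1 cannot be told apart.

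The polyA RNA of 18 libraries was sequenced with reads of 50 bases. There were 4 D5 controls, 3 D6 controls, 3 pulsed D6 libraries, 2 controls and 2 pulsed libraries at D8, and 2 controls and 2 pulsed libraries at D12. D5 and D6 samples are labelled cardiac progenitor cells, and D8 and D12 samples immature cardiomyocytes. A library is named by its day, its condition and the number in its count column. The labels do not say that libraries of a group are separate cultures, so the spread behind each p-value is that between these samples and may be technical.

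T-box factors bind DNA through a conserved domain, and some activate while others repress the genes they bind. In the embryonic heart TBX5 and TBX20 work with GATA4 and NKX2-5 to switch on the genes of the contracting chambers, while TBX2 and TBX3 hold the same genes down in the atrioventricular canal and the conduction system. TBX18 marks the sinus horn and the epicardium, TBX1 keeps progenitors of the second heart field and pharynx dividing, and TBX4 is best known from the hindlimb and lung.

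Library totals ran from 18470785 to 26184339 counts. Mouse Gli1 averaged 13.99 ± 7.28 CPM (counts scaled to library size, mean ± SD, n = 3) in D6 controls and 909 ± 134 in pulsed D6 cells (n = 3), and at D8 and D12 it was back at 1.19 and 0.956 CPM in pulsed cells against 0.964 and 0.855 in controls. All 8 cardiomyocyte markers examined, among them Tnnt2, Myh6 and Ttn, had counts in every library. Their summed level ran from 822 CPM in the pulsed D8 library 18 to 13060 in the D8 control library 13. Pulsed D8 library 18 stands apart from its partner, library 14, whose marker sum was 10668, and the D5 controls fall into libraries 1 and 2 against libraries 3 and 4 for several T-box genes. Some results that rest on these libraries are therefore given with and without them.

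**Figure D1:**
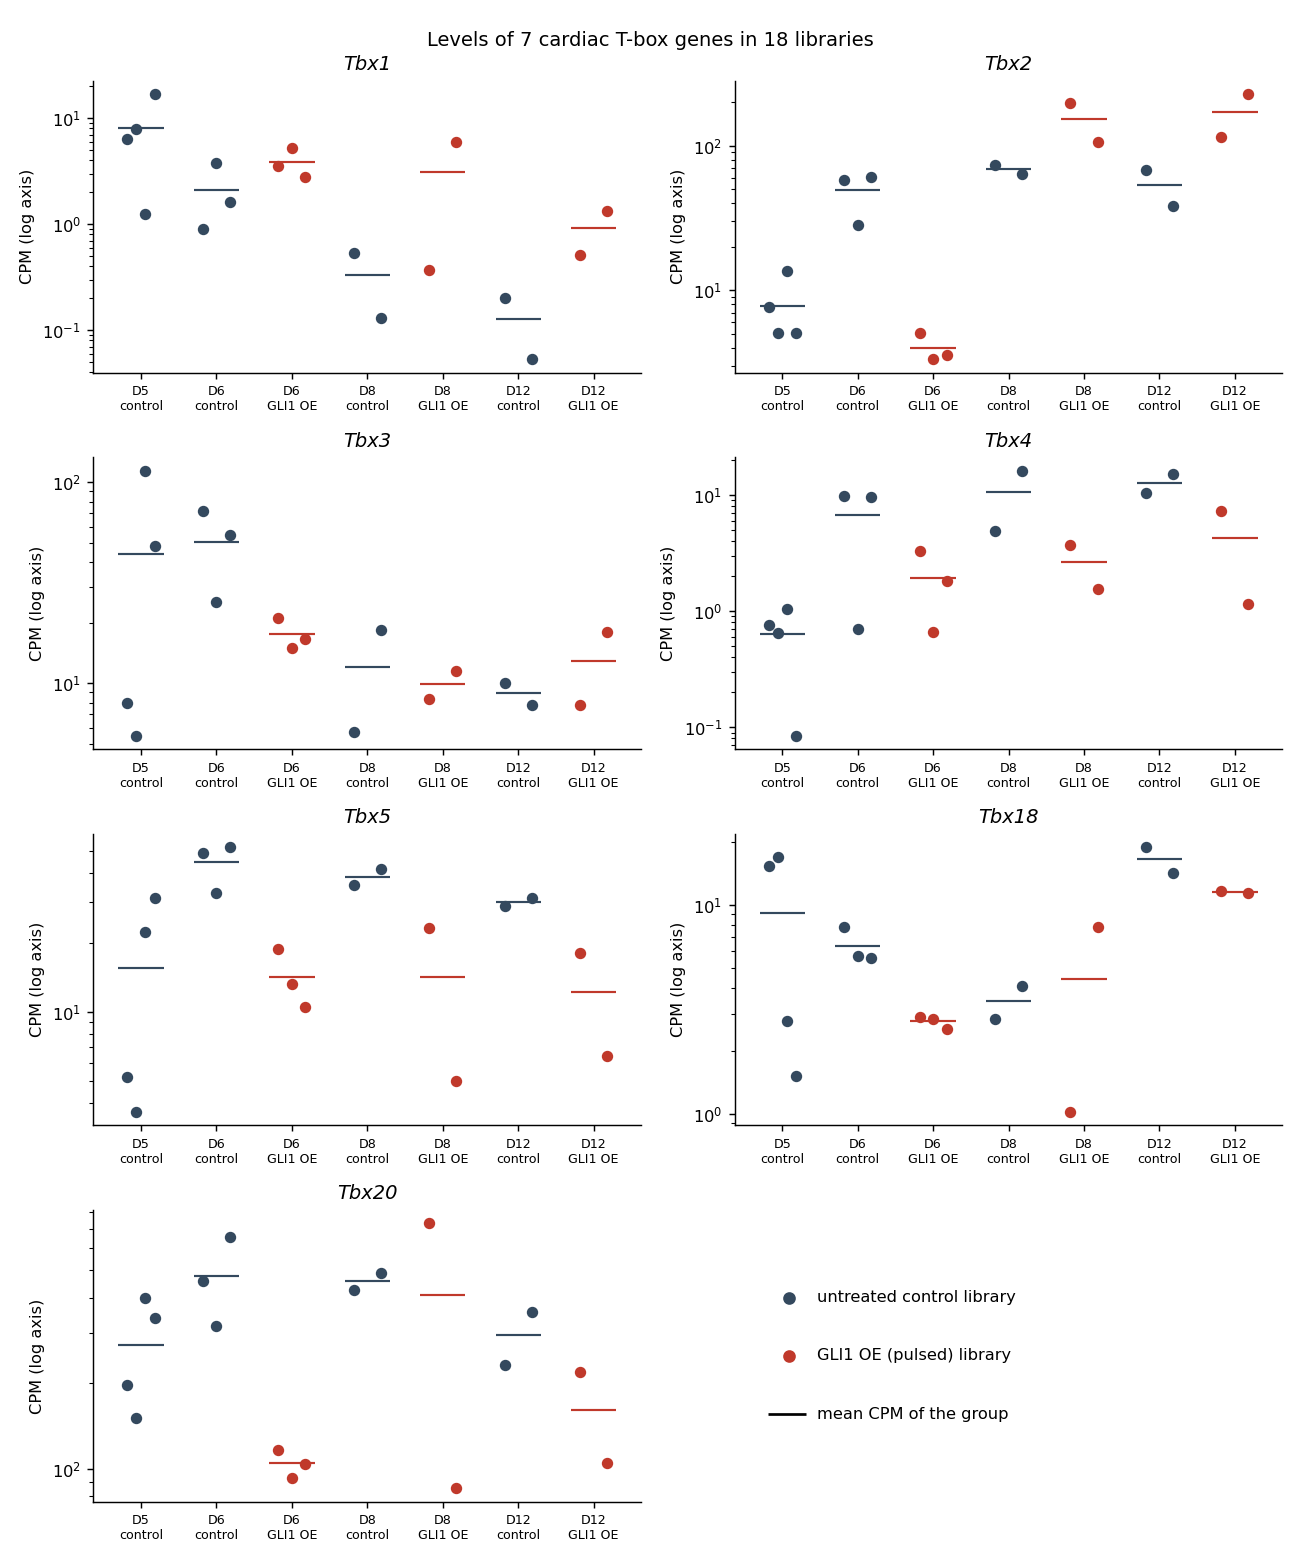
Levels of the 7 T-box genes in all 18 libraries, in CPM on a log axis, by day and condition. Points are libraries and bars are group means, with control libraries in blue and pulsed libraries in red. Tbx2 is lowest in pulsed D6 cells, at 3.32 to 5.09 CPM, and highest in pulsed D8 and D12 cells, at 106 to 228 CPM.

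Promoter sequence was at hand for 4 of the 7 members (Tbx1, Tbx4, Tbx18 and Tbx20), from RefSeq on build GRCm38.p6. The sequences of Tbx20 and Tbx18 are shown because in these 2 genes every pulsed D6 library lay below every D6 control library, as described below. Each is the 250 bases before the annotated start, written 5′ to 3′ on the gene's strand, the minus strand in both cases.
Tbx20, chr9:24774304-24774553: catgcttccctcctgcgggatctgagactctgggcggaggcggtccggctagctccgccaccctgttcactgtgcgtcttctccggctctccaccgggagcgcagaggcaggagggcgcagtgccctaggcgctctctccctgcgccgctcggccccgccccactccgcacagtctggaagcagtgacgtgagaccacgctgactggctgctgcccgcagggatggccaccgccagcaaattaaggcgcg
Tbx18, chr9:87731261-87731510: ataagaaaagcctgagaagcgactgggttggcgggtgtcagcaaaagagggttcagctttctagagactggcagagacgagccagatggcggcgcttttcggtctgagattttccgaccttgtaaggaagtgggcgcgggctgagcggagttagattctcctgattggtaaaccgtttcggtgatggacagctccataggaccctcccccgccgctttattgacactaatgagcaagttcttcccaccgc
The Tbx20 window is 68.8% G and C with 22 CpG dinucleotides, and the Tbx18 window is 54.0% with 15. Both strands were searched for the GLI motif TGGGTGGTC, the T-box motif GGTGTGA, the GATA motif AGATAA and the TATA box TATAAA. Of 32851 promoter windows of the same length, 0.225% hold the GLI letters, 3.33% the T-box letters, 9.99% the GATA letters and 12.4% the TATA letters. Neither printed window holds any of the 4. Among the matched members, the search found 1 hit, a TATA box on the minus strand of Tbx4, from base -85 to base -80 before the start. A match is a description of the letters and does not show binding.

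Among the repressors, Tbx2 moved most. It was low at D5, rose in controls at D6, and was at or below the D5 level in pulsed D6 cells. The 4 D5 controls had 7.70, 5.08, 13.5 and 5.06 CPM. The 3 D6 controls had 28.3, 61.2 and 57.9 CPM, and the 3 pulsed D6 libraries had 3.32, 3.56 and 5.09 CPM. Each pulsed D6 library lay below each D6 control, with a wide gap between the groups, while the lowest D5 controls and the highest pulsed D6 library met at about the same level. Mean Tbx2 was 49.1 ± 18.1 CPM (SD, n = 3) in D6 controls and 3.99 ± 0.956 CPM (n = 3) in pulsed cells, a log2 fold change of -3.62 ± 0.47 (SE; edgeR, adjusted p = 0.000412). Summed over libraries, the pulsed cells held 0.0817 times the control level, with a 95% interval of 0.0719 to 0.0926 that covers counting error only. In bulk samples fewer cells that express a gene and less RNA of it per cell cannot be told apart.

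In controls, Tbx2 rose between D5 and D6 by 2.65 ± 0.40 on the log2 scale (edgeR, adjusted p = 0.000369). This comparison uses the same D6 controls as the GLI1 OE effect. Pulsed D6 cells against the D5 controls differed by -0.97 ± 0.43 for Tbx2 (edgeR, adjusted p = 0.107). The drop below the D5 level thus did not pass the test, while the difference from D6 controls did.

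After the pulse the order of the groups for Tbx2 was the other way round. At D8 the controls had 73.8 and 63.5 CPM and the pulsed libraries 199 (library 14) and 106 (library 18). At D12 the controls had 38.4 and 68.5 CPM and the pulsed libraries 115 and 228. At both days every pulsed library lay above every control, including pulsed D8 library 18 with its low cardiomyocyte markers. Pulsed cells averaged 153 ± 65.7 CPM against 68.6 ± 7.30 at D8 (SD, n = 2 each), a log2 fold change of 1.15 ± 0.50 (edgeR, adjusted p = 0.818). They averaged 171 ± 79.4 against 53.4 ± 21.2 at D12 (n = 2 each), a log2 fold change of 1.68 ± 0.51 (edgeR, adjusted p = 0.618, unadjusted p = 0.00557). Neither day passed the test in these libraries. In the authors' deposited table for D12, Tbx2 has a log2 fold change of 1.71 and an adjusted p of 0.000247.

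The change of the Tbx2 effect between days did pass. The effect was higher at D8 than at D6 by 4.77 ± 0.70 on the log2 scale (edgeR interaction, adjusted p = 0.00584), and higher at D12 than at D6 by 5.30 ± 0.70 (adjusted p = 0.00385). Tbx2 was the 1 member of 7 called in each, against a background of 0.0672% of 14892 genes called higher between D8 and D6 and 0.094% between D12 and D6. Both differences share the D6 libraries. Within pulsed cells Tbx2 rose between D6 and D8 by 5.25 ± 0.52 (edgeR, adjusted p = 1.56e-05). The call held under every alternative tried for these 2 interactions, 18 and 19 in number, with adjusted p values up to 0.0485 and 0.0320, the first without D8 control library 17 and the second without D12 control library 19.

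Tbx3, which represses chamber genes in the conduction system, was most uneven at the start. The D5 controls had 8.02, 5.48, 114 and 48.2 CPM, a 20.8-fold range, with libraries 1 and 2 low and libraries 3 and 4 high. D6 controls had 25.3, 54.6 and 71.6 CPM and pulsed D6 libraries 14.9, 16.6 and 21.1 CPM. The 2 D6 groups did not overlap, though the lowest control was close to the highest pulsed library. The log2 fold change was -1.53 ± 0.87 (edgeR, adjusted p = 0.444), and the adjusted p was 0.094 when the D5 controls were left out of the fit. At D8 the controls had 5.71 and 18.5 CPM and the pulsed libraries 8.33 and 11.5, inside the control range. At D12 they were 7.80 and 10.1 against 7.84 and 17.97 CPM, which overlap as well. Control Tbx3 averaged 50.5 ± 23.5 CPM at D6 (SD, n = 3) and 12.1 ± 9.03 at D8 (n = 2), a log2 difference of -2.06 ± 1.03 (edgeR, adjusted p = 0.133). Of the 14 alternatives 1 called it, the fit without the D5 controls (adjusted p = 0.0143), while the fit to only these 2 groups did not (0.0508).

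Tbx20, a chamber activator, had the highest mean level per length in every group but pulsed D12 cells, and its pulsed D6 libraries lay close together below the controls. The D5 controls had 197, 150, 398 and 340 CPM, and the D6 controls 317, 655 and 458 CPM. The pulsed D6 libraries had 92.9, 104 and 116 CPM. All 3 lay below each of the 7 control libraries of D5 and D6. Tbx20 was the 1 member whose pulsed D6 libraries lay below all D5 controls, where 18.3% of all genes did so. The mean was 477 ± 170 CPM in D6 controls and 104 ± 11.5 CPM in pulsed cells (SD, n = 3 each), a log2 fold change of -2.19 ± 0.60 (edgeR, unadjusted p = 0.00266, adjusted p = 0.0588). That value misses the threshold of 0.05. Adjusted p for Tbx20 was 0.0046 without pulsed D8 library 18, 0.0102 with DESeq2 and 0.0697 with limma-voom.

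At D8 the 2 pulsed libraries gave opposite pictures of Tbx20. Library 14 had 730 CPM, above the controls at 427 and 488, and library 18 had 85.1 CPM, below both. The log2 fold change was -0.17 ± 0.70 (edgeR, adjusted p = 0.986), and it was 0.68 without library 18 and -2.44 without library 14. With both libraries it follows the group means, 408 CPM in pulsed cells and 458 in controls, and so leans to library 14. At D12 the pulsed libraries had 218 and 104 CPM against 357 and 232 in controls, lower without overlap, with a log2 fold change of -0.87 ± 0.71 (edgeR, adjusted p = 0.970). Within pulsed cells Tbx20 rose from D6 to D8 by 1.97 ± 0.64 (edgeR, adjusted p = 0.025). The call rests on library 14: without it the log2 change was -0.31, and leaving out any of the 3 pulsed D6 libraries gave adjusted p values from 0.0521 to 0.0697. With adjacent library numbers as a replicate block the adjusted p was 0.0725. Without library 18 Tbx20 fell in pulsed cells from D8 to D12 by 2.16 on the log2 scale (adjusted p = 0.0125), which was not called with it.

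Tbx5, the other chamber activator and the gene altered in Holt-Oram syndrome, followed Tbx20 at D6. The D5 controls had 5.19, 3.67, 22.2 and 31.1 CPM, libraries 1 and 2 again the low ones. D6 controls had 32.8, 52.0 and 48.8 CPM and pulsed D6 libraries 13.1, 10.5 and 18.8 CPM. The D6 groups did not overlap. The log2 fold change was -1.65 ± 0.71 (edgeR, unadjusted p = 0.0355, adjusted p = 0.261). At D8 controls had 35.5 and 41.8 CPM and pulsed libraries 23.2 and 4.996. At D12 controls had 31.1 and 28.7 CPM and pulsed libraries 18.003 and 6.44. At all 3 days each pulsed library was below each control. The log2 fold change of Tbx5 was -1.45 ± 0.87 at D8 (edgeR, adjusted p = 0.866) and -1.30 ± 0.87 at D12 (adjusted p = 0.934). At D8 it was -0.73 without pulsed library 18 and -2.97 without library 14, and at D12 it was -0.73 without pulsed library 20 and -2.21 without library 10. The difference of the Tbx5 effect between D8 and D6 was 0.20 ± 1.10 (edgeR, adjusted p = 1.00), with an error too wide to say whether the effect faded or held.

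**Figure D2:**
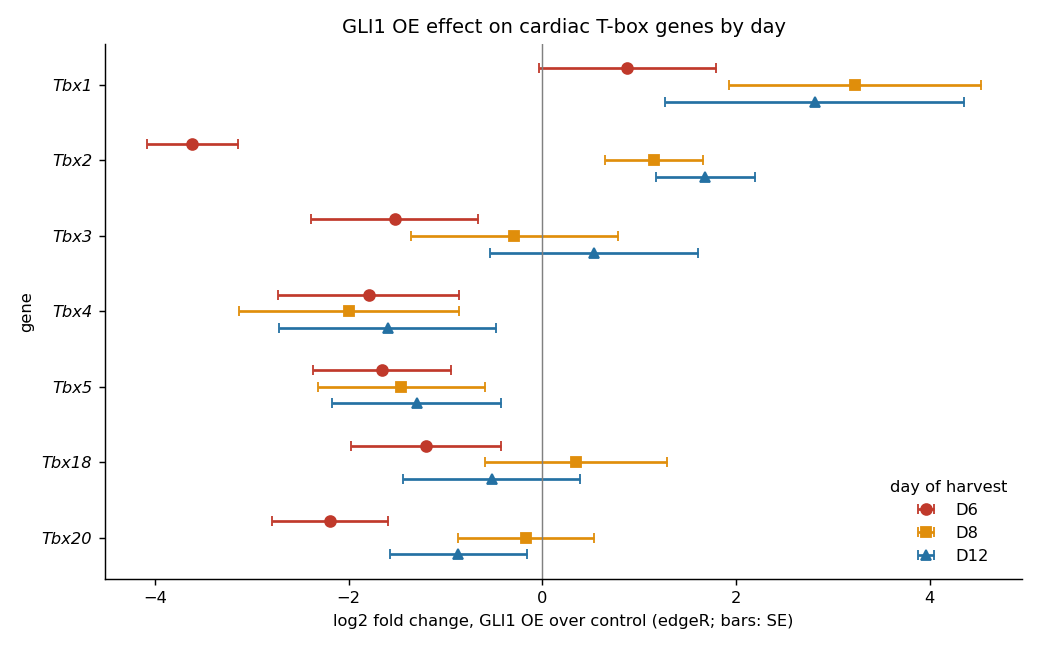
Log2 fold change of pulsed over control cells for each T-box gene at D6, D8 and D12, with the standard error from edgeR as bars. Tbx2 lies at -3.62 at D6 and above 0 at D8 and D12, while Tbx4 and Tbx5 stay below 0 at all 3 days, each with wide error.

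Tbx18, a marker of sinus horn and epicardium, was one of the steadiest members among pulsed D6 libraries and one of the most uneven at D5. The D5 controls had 15.4, 16.8, 2.78 and 1.52 CPM. Here libraries 1 and 2 were the high ones, the reverse of Tbx3 and Tbx5. D6 controls had 5.67, 5.56 and 7.82 CPM and pulsed D6 libraries 2.85, 2.54 and 2.89 CPM, all below the controls. The log2 fold change at D6 was -1.20 ± 0.78 (edgeR, adjusted p = 0.530). The SD of log2 CPM for Tbx18 was 0.10 over the pulsed D6 libraries and 1.72 over the D5 controls, which both enter the shared estimate of spread. At D8 the controls had 2.83 and 4.10 CPM, pulsed library 14 had 1.02 and pulsed library 18 had 7.81, so that the pulsed pair lay on either side of the controls. At D12 the controls had 14.1 and 18.8 CPM and the pulsed libraries 11.6 and 11.3, lower without overlap (log2 fold change -0.52 ± 0.91, edgeR adjusted p = 0.979). Control Tbx18 averaged 3.46 ± 0.895 CPM at D8 and 16.5 ± 3.35 at D12 (SD, n = 2 each), a log2 difference of 2.25 ± 0.96 (edgeR, adjusted p = 0.0825). That difference was called when only these 2 groups were fitted (adjusted p = 0.00839) and by DESeq2 (0.0301).

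Tbx1, the gene of the second heart field, had its highest level at D5 and little expression in controls later. The D5 controls had 6.38, 7.82, 1.24 and 16.8 CPM. D6 controls had 3.77, 1.64 and 0.893 CPM and pulsed D6 libraries 5.27, 2.77 and 3.51, which overlap. Tbx1 was the 1 member with an estimate above 0 at D6, 0.88 ± 0.91 on the log2 scale (edgeR, adjusted p = 0.747). At D8 the controls had 12 and 3 counts (0.531 and 0.131 CPM), pulsed library 14 had 8 counts (0.370 CPM) and pulsed library 18 had 130 (5.90 CPM). The D8 log2 fold change of 3.23 ± 1.30 (edgeR, unadjusted p = 0.0267, adjusted p = 0.799) came down to 0.16 without library 18. At D12 the controls had 1 and 4 counts and the pulsed libraries 9 and 30, higher without overlap at very low counts (log2 fold change 2.81 ± 1.55, edgeR adjusted p = 0.914).

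Tbx4, a hindlimb and lung gene that neighbours Tbx2 on chromosome 11, was barely present at D5 and rose in controls. The D5 controls had 0.758, 0.645, 1.04 and 0.0844 CPM. D6 controls had 0.698, 9.72 and 9.73 CPM, library 11 being at the D5 level, and the log2 change from D5 was 3.40 ± 0.92 (edgeR, adjusted p = 0.0200). It lost the call with limma-voom (adjusted p = 0.117) and without D6 control library 15 (0.0740) or library 3 (0.0688). Pulsed D6 libraries had 0.665, 1.80 and 3.31 CPM and overlap with the controls through library 11 (log2 fold change -1.79 ± 0.94, edgeR adjusted p = 0.387). At D8 the controls had 4.87 and 16.3 CPM and the pulsed libraries 3.75 and 1.54. At D12 they were 15.1 and 10.5 against 7.33 and 1.16 CPM. The pulsed libraries were below the controls at both later days, by -1.996 ± 1.14 at D8 and -1.60 ± 1.12 at D12 on the log2 scale (edgeR, adjusted p = 0.859 and 0.946). Leaving out 1 library moved the Tbx4 value to between -2.79 (without pulsed library 14) and -0.88 (without control library 17) at D8, and to between -3.45 (without pulsed library 10) and -0.79 (without pulsed library 20) at D12. Without pulsed D8 library 18 it was -1.49.

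Counted over the 7 members, edgeR called 1 lower and none higher at D6, where of all 14892 genes 4.14% were called, 1.12% lower and 3.02% higher. At an unadjusted p under 0.05 there were 3 members (Tbx2, Tbx5 and Tbx20) beside 2348 of all genes, and 6 of 7 estimates lay below 0. The median log2 fold change of the members was -1.65 beside -0.02 over all genes. In 5 members (Tbx2, Tbx3, Tbx5, Tbx18 and Tbx20) the pulsed libraries lay below all controls, where 13.8% of all genes did so. Tbx2 and Tbx4 are neighbours on chromosome 11, as are Tbx3 and Tbx5 on chromosome 5.

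The D6 count depends on which libraries set the spread. With all 18 libraries only Tbx2 was called. With only the 6 D6 libraries, 5 members were called: Tbx2 (adjusted p = 0.0015), Tbx20 (0.00347), Tbx5 (0.0113), Tbx18 (0.0173) and Tbx3 (0.0470), with log2 fold changes of -3.61, -2.18, -1.64, -1.19 and -1.52 that differ little from those above. In that fit 1254 of 13638 genes were called, beside 616 of 14892 in the full fit, so more genes were called in general as well. Adding adjacent library numbers as a replicate block to the 6 libraries called all 7, Tbx1 higher and the others lower, along with 4576 genes in all, and this fit, added after seeing the data, leaves few residual degrees of freedom. Leaving pulsed D8 library 18 out of the full fit called Tbx2 and Tbx20. The authors' deposited D6 table has the same 5 members under an adjusted p of 0.05 as the fit to D6 libraries alone, with Tbx20 at a log2 fold change of -2.18 and an adjusted p of 4.09e-18. The fold changes were close to each other between fits and the errors were not. The SD of log2 CPM over D5 controls was 2.08 for Tbx3, 1.72 for Tbx18, 1.51 for Tbx5 and 0.66 for Tbx20, where the median over all genes was 0.244. Over the 2 pulsed D8 libraries it was 2.62 for Tbx1, 2.19 for Tbx20, 2.004 for Tbx18 and 1.55 for Tbx5, where the median was 0.219. Leaving the D5 controls out of the full fit did not change the count of 1, and the part of each group's spread was not tested.

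**Figure D3:**
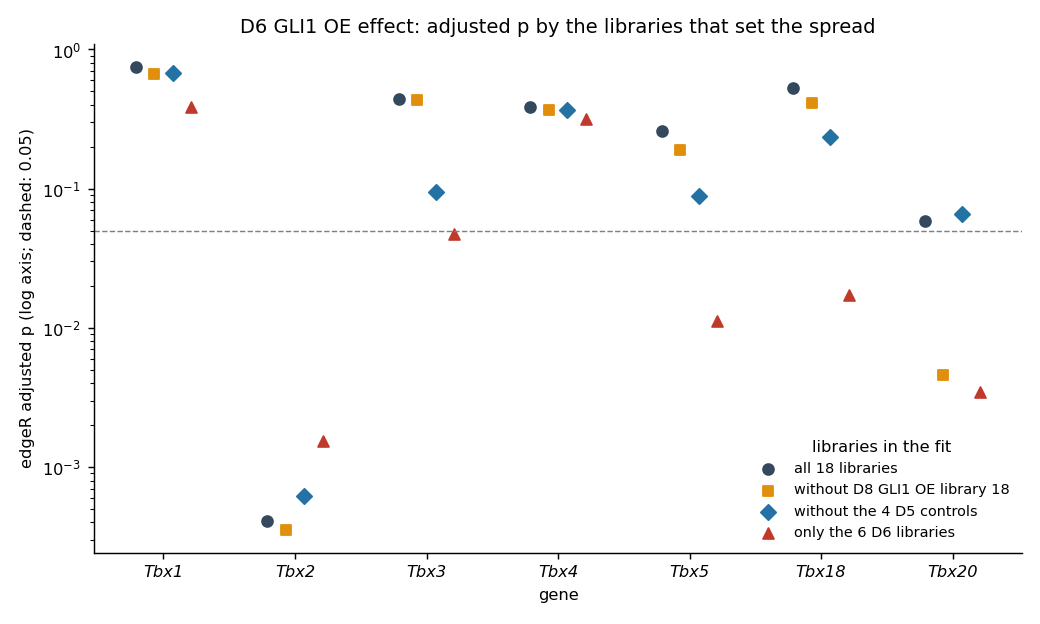
Adjusted p from edgeR for the D6 effect of the pulse on each T-box gene, on a log axis, in 4 fits that differ in the libraries included. The dashed line is 0.05. Tbx2 lies under the line in all 4 fits, Tbx20 in 2 of them, and Tbx3, Tbx5 and Tbx18 only where the 6 D6 libraries were fitted alone.

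At D8 and at D12 edgeR called no member, and 0% of all genes in either comparison. At an unadjusted p under 0.05 there were 2 members at D8 (Tbx1 and Tbx2) and 1 at D12 (Tbx2), and DESeq2 and limma-voom also called none. At D8 the pulsed libraries lay above all controls in 1 member and below them in 2, where 17% and 15.2% of all genes did so. At D12 they lay above in 2 members (Tbx1 and Tbx2) and below in 4 (Tbx4, Tbx5, Tbx18 and Tbx20), where the shares of all genes were 17.9% and 16.4%.

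Time courses of the members were set apart from the pulse. In controls, edgeR called 2 members higher from D5 to D6 (Tbx2 and Tbx4), where 8.39% of all genes were called higher. No member was called from D6 to D8, where 34.8% of all genes were called, nor from D8 to D12, where 36.3% were. At an unadjusted p under 0.05 there were 0 and 1 (Tbx18), DESeq2 called 1 at each step (Tbx1 lower, then Tbx18 higher) and limma-voom none. In pulsed cells 2 were called higher from D6 to D8 (Tbx2 and Tbx20), where 20.3% of all genes were. None was called from D8 to D12, where 33.5% of genes were, and none had an unadjusted p under 0.05 or was called by DESeq2 or limma-voom. Against the D5 controls, pulsed D6 cells had no member called by edgeR or limma-voom where 29.5% of genes were called by edgeR. DESeq2 called Tbx18. At an unadjusted p under 0.05 there were 3 members, Tbx2, Tbx18 (-1.72 ± 0.75 on the log2 scale) and Tbx20 (-1.38 ± 0.56), beside 5975 of all 14892 genes, a like share.

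Cardiomyocyte markers moved with some of these results and against others. Summed over the 8 markers, D6 controls had 2935 to 7799 CPM and pulsed D6 libraries 938 to 3095, and none of the 8 was called by edgeR at D6. All 8 estimates lay below 0, with a median log2 fold change of -1.42, and 1 had an unadjusted p under 0.05. Tbx20 and Tbx5 were low in the same pulsed D6 libraries, and in pulsed D8 library 18, where the marker sum was 822 CPM, Tbx20 and Tbx5 were 8.58 and 4.65 times lower than in library 14. The marker sums of the D6 groups overlap, as pulsed library 12 had 3095 CPM and control library 3 had 2935. In pairs of adjacent library numbers the pulsed sum was the lower each time. It was 3095 against 7799 CPM in libraries 12 and 11, 938 against 4742 in 16 and 15, and 959 against 2935 in 4 and 3. Within the D5 controls the levels ran the other way. Libraries 1 and 2 had marker sums of 3869 and 3648 CPM and Tbx20 at 197 and 150 CPM. Libraries 3 and 4 had sums of 1175 and 2043 CPM and Tbx20 at 398 and 340 CPM. D6 control library 11, with the highest sum of its group, had the lowest Tbx20 and Tbx5, 317 and 32.8 CPM. Pulsed D6 library 12, also highest in sum, had the lowest Tbx20 of its group, 92.9 CPM. The markers' part in the T-box results was not tested. Summed endoderm markers were 102 to 128 CPM in pulsed D6 libraries and 7.44 to 11.9 in D6 controls, with Foxa2 the one called. Most of that rise was Foxa2 itself, with a mean of 97.6 CPM in pulsed D6 cells and 0.567 in D6 controls. Sox17 had means of 11.1 and 8.27 CPM, and the remaining endoderm markers averaged at most 0.971 CPM in either group. The part of the endoderm markers was not tested either. Epicardial markers, which Tbx18 accompanies, summed to 86.6 to 129 CPM in pulsed D6 cells and 111 to 168 in controls, with none of 6 called and 1 at an unadjusted p under 0.05. Most of that sum was Krt19, with means of 75.7 CPM in pulsed D6 cells and 96.6 in D6 controls. Of the 6 estimates, 4 lay below 0. Tcf21 went the other way, at 11.7 to 15.1 CPM in pulsed D6 libraries and 3.77 to 5.28 in D6 controls. None of the markers of endothelium, limb and body wall mesenchyme, paraxial mesoderm, neural or pluripotent cells was called at D6.

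**Figure D4:**
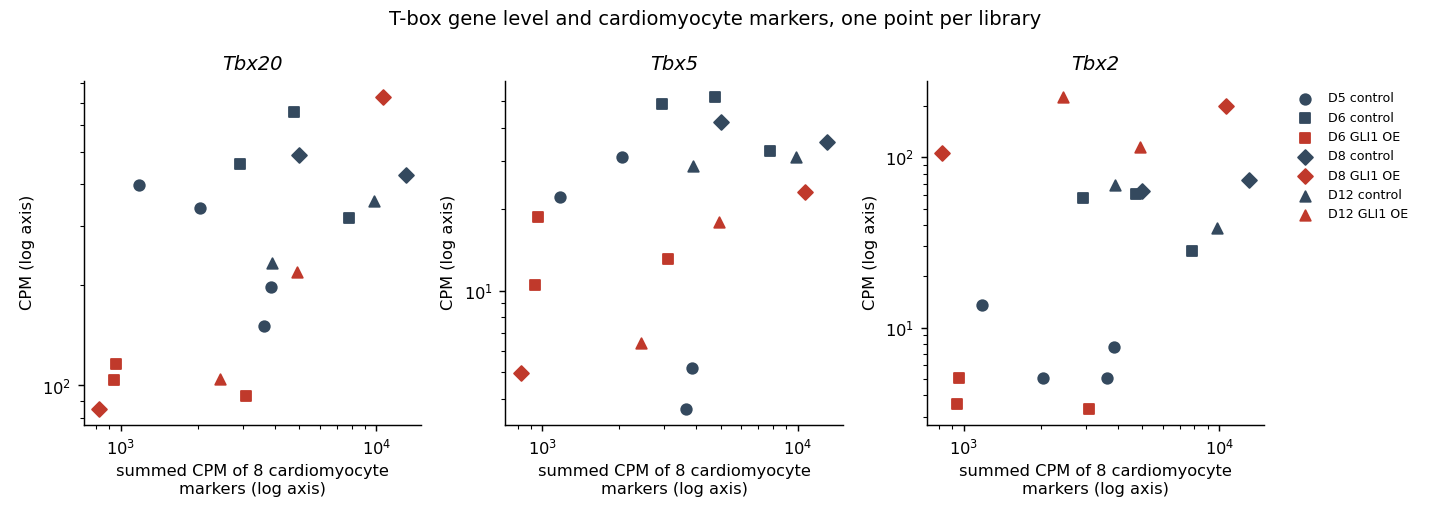
Level of Tbx20, Tbx5 and Tbx2 against the summed level of 8 cardiomyocyte markers, both in CPM on log axes, 1 point per library. Pulsed D8 library 18, the red diamond at 822 CPM, has the lowest Tbx20 of all 18 libraries, while its Tbx2 of 106 CPM is above all controls.

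To compare levels between genes, CPM was scaled by gene length with the authors' D5 TPM values. On this scale Tbx20 led in D5 controls at 94.1 (mean, n = 4), followed by Tbx3 at 19.0, Tbx1 at 9.46, Tbx5 at 8.63, Tbx2 at 4.78, Tbx18 at 4.35 and Tbx4 at 0.450. Only Tbx20 and its neighbour Tbx3 had ranges that did not overlap. In D6 controls Tbx20 was at 165 and Tbx2 had moved from rank 5 to rank 2, at 29.9, though its range overlaps with that of Tbx5 at 24.7. In D8 and D12 controls the order of the top 3 was Tbx20, Tbx2 and Tbx5, each separate from the next by range. In pulsed D6 cells Tbx20 still led, at 36.2, and Tbx2 had rank 5 at 2.43. In pulsed D8 cells the mean of Tbx20, 141, was above that of Tbx2, 93.0, but the ranges overlap, at 29.5 to 253 and 64.7 to 121, and in library 18 Tbx2 was the higher. In pulsed D12 cells Tbx2 at 104 stood above Tbx20 at 56.0, but their ranges, 70.2 to 139 and 36.1 to 75.8, overlap.

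**Figure D5:**
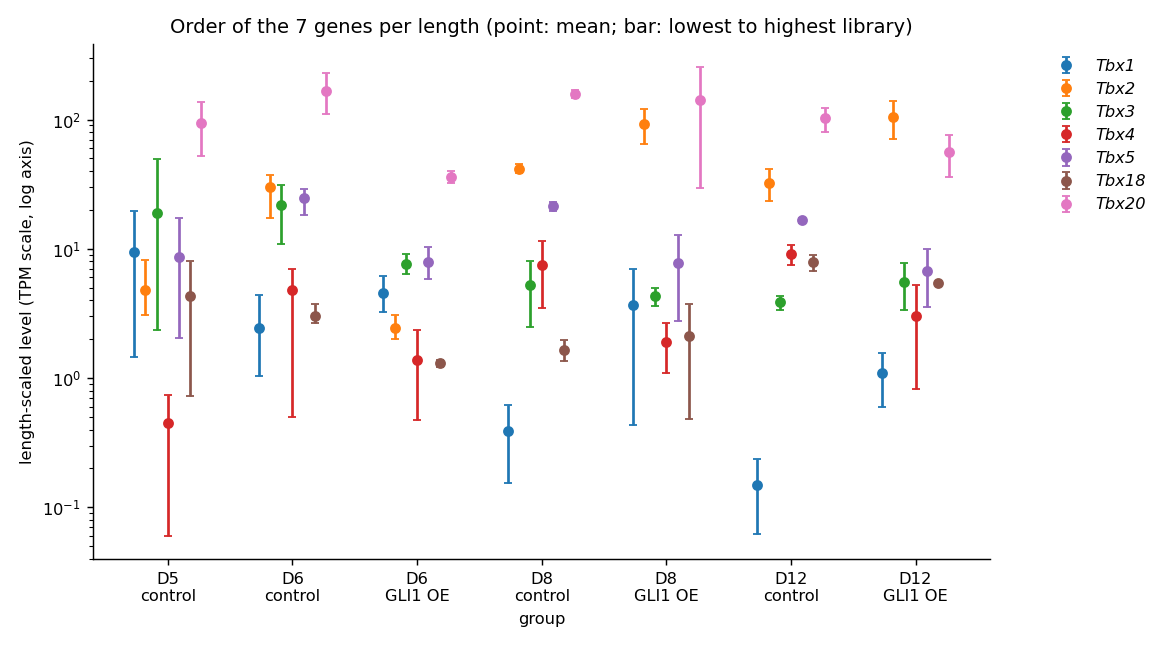
Length-scaled level of the 7 T-box genes in each group, on the TPM scale with a log axis. Points are means and bars run from the lowest to the highest library. Tbx20 is highest in all 4 control groups, and in pulsed D12 cells the mean of Tbx2 lies above that of Tbx20.

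Genes with the pattern most like each member were found by Pearson's r of mean log2 CPM over the 7 groups, as a description over 7 points that share libraries. They are the highest of 6527 genes compared (6528 for Tbx1), so a high r comes from the selection and shows no link between genes. For Tbx2 they were Id1 (0.993), Mab21l2 (0.987) and Id3 (0.977), the Id genes being textbook targets of BMP signalling. For Tbx20 they were Pde4a (0.982), Tdrd7 (0.959) and Tnnt2 (0.953), the last encoding cardiac troponin T. Tbx5 was most like Myl4 (0.987), an atrial myosin light chain, then Spnb1 (0.928) and Itga2b (0.913). For Tbx3 they were Ydjc (0.953), Reep6 (0.950) and Klhdc8a (0.935). Tbx18 was nearest to Heatr5a (0.990), Fam124a (0.989) and Adcy1 (0.984). Tbx4 was nearest to Dusp2 (0.991), Mical2 (0.965) and Asb2 (0.960), and Tbx1 to Tmem216 (0.977) and Vash1 (0.965). Among the members themselves Tbx1 and Tbx4 were the pair farthest apart, with r of -0.94, and Tbx5 and Tbx20 the most alike, with r of 0.75.

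Calls at D6 among genes of the same pathways are set beside the share over all genes. That share was 4.14% called, 1.12% lower and 3.02% higher. Of 11 BMP and TGF-beta ligands and early targets of these signals, edgeR called 2 lower at D6 and none higher. They were Id2 (-1.29 ± 0.30, edgeR adjusted p = 0.0261) and the ligand Tgfb2 (-1.15 ± 0.12, edgeR adjusted p = 4.74e-05). Control of Tbx2 and Tbx3 by these signals was not tested. In this list 8 of 11 had an unadjusted p under 0.05, beside 2348 of all 14892 genes, and the median log2 fold change was -1.11. Tgfb2 was also called in the differences of effect between D8 and D6 and between D12 and D6, as was Tbx2. Of 12 genes on a chamber list, Irx4, a ventricular factor, fell by 5.20 (SE 0.98, edgeR adjusted p = 0.00681) and Hey1, a Notch target, rose by 1.85 ± 0.31 (adjusted p = 0.00308). Control of these 12 genes by T-box factors was not tested. Unadjusted p was under 0.05 in 4 of the 12, 9 estimates lay below 0, and their median log2 fold change was -0.695. Of 9 sinus node genes tested, the pacemaker channel gene Hcn4 fell by 2.95 (SE 0.39, edgeR adjusted p = 0.000447) and no other was called. Unadjusted p was under 0.05 in 5 of the 9, 8 estimates lay below 0, and their median log2 fold change was -1.38.

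Of 10 partners of T-box factors edgeR called none at D6, and their median log2 fold change was -0.83. At an unadjusted p under 0.05 there were 4. The partner of highest level, Mef2c, had a log2 fold change of -0.52 ± 0.38 (adjusted p = 0.587). Of 11 second heart field genes none was called, with 4 at an unadjusted p under 0.05. The one of highest level, Bmp4, was at -0.73 ± 0.29 (edgeR, adjusted p = 0.221). Of the Hedgehog targets, Ptch1 rose by 4.25 ± 0.35 on the log2 scale at D6 and Hhip by 6.28 ± 0.63 (edgeR, adjusted p = 1.53e-05 and 5.01e-05). Gli1, also on that list, rose by 6.02 ± 0.59 (edgeR, adjusted p = 4.31e-05). It is the gene the pulse was meant to induce, so its rise is a check of the pulse and not a target response. No gene of these 6 lists was called at D8 or D12, where no gene at all was.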

How the data were processed

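PolyA RNA of 18 libraries in 7 day-by-condition groups was analysed. The tests rest on raw read counts per gene symbol as deposited by the authors. For the counts, aligner, counter, genome build and use of strand were not given in the sources used here, so a gene and an overlapping antisense gene, such as Tbx3os1 at the start of Tbx3, cannot be told apart. No antisense or neighbouring noncoding T-box gene is a row of the count table. TPM values deposited by the authors for D5 served only to scale levels by gene length (CPM times mean D5 TPM over mean D5 CPM). The authors' deposited tables of log2 fold changes, p-values and adjusted p-values were used only beside values computed here, and the test score in the deposited D6 table was not used. The D8 and D12 tables hold 6 of the 7 members (not Tbx1).

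In R 4.3.3, edgeR 4.0.16 fitted a robust quasi-likelihood model with TMM scaling and 1 coefficient per group to all 18 libraries. Of 23337 genes, 14892 passed the expression filter (minimum count 10). F-test p-values were adjusted by Benjamini-Hochberg over all genes tested and called under 0.05. An SE is the log2 fold change divided by the root of F. Log2 CPM used a prior count of 2. DESeq2 1.42.0 and limma-voom (limma 3.58.1), other scaling, no filter, a block, fewer groups and left-out libraries were alternatives. The fits were checked on simulated data with known log2 changes of 1 and 2. At D6 64.6% and 80.8% of these were called, at D8 36.2% and 67%, and at D12 37.8% and 71.4%. Many true changes can therefore be missed at D8 and D12. Each simulated gene had the same spread in all groups, and no simulated library stood apart. These shares therefore do not show how often a change would be called in members with uneven spread.

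Depth was 18470785 to 26184339 counts a library. Count columns carry library numbers but no replicate number from the labels, so pairs of adjacent numbers were checked. Deviations from the group mean correlated at 0.617, 0.445 and 0.520 at D6, 0.491 at D8 and -0.231 at D12. With 2 libraries in a group at D8 and D12, the pairs of a day share 1 value by construction. D5 libraries 1 and 2 differed least, with a chi-square per gene of 7.17 against 53.5 to 99.2 for other D5 pairs, more than sampling noise, and were kept as 2. The members and lists were chosen with earlier results of these data known. All members were named. From each other list, the genes called at D6 were named, up to 4 by adjusted p, or else the gene of highest level, and the 3 genes most similar to each member with mean log2 CPM and range over groups of at least 1. Some genes that this rule names are not reported here.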

Additional observations from a re-analysis of the deposited data

Results flagged for a closer look

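The effect of the GLI1 pulse on Tbx2 differed between days by a test of the difference itself. Between D8 and D6 it differed by 4.77 on the log2 scale (edgeR interaction, adjusted p = 0.00584), and between D12 and D6 by 5.30 (adjusted p = 0.00385). Pulsed cells were lower than controls in 3 of 3 libraries at D6 and higher in 2 of 2 at D8 and at D12. Both differences use the same 6 D6 libraries, so they are not independent of each other.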

How the results depend on the processing

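Counts of members called are given here where an alternative moved them. For the D6 effect of the pulse (1 of 7), fitting only the groups compared called 5, DESeq2 2, dropping pulsed D8 library 18 2, and the D6 libraries with a replicate block 7. For the pulsed change from D6 to D8 (2), the count was 1 with the replicate block, with the block after crossing the D12 pairs, with only the groups compared and with limma-voom. The control change from D6 to D8 (0) gave 1 with DESeq2 and without the D5 controls. The control change from D8 to D12 (0) gave 1 with only the groups compared, with DESeq2, without pulsed D8 library 18 and without the D5 controls. Pulsed D6 cells against D5 controls (0) gave 1 with only the groups compared, with DESeq2 and without pulsed D8 library 18. Leaving out 1 library at a time gave 1 to 3 for the control change from D5 to D6, 0 to 1 for pulsed D6 cells against D5 controls, 1 to 2 for the pulsed change from D6 to D8 and 0 to 1 for that from D8 to D12, and left the other 7 counts as they were. The 3 called without D5 control library 4 include Tbx5, and Tbx18 was the one called in pulsed D6 cells against D5 controls without it. Ordered by CPM instead of per length, 3 of 7 positions at D5 were the same. The causes were not tested, except that smaller fits hold fewer libraries by construction.

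Of the estimates that changed sign, the pulsed change of Tbx20 from D6 to D8 was a call and the others were not. Tbx18 at D8 was -0.15 with the replicate block, -0.26 with limma-voom, -0.15 with the D12 pairs crossed, and -1.76 to 1.15 leaving out 1 library at a time. Leaving out 1 library gave -0.91 to 0.79 for Tbx3 and -2.44 to 0.68 for Tbx20 at D8, -0.18 to 1.01 for Tbx3 at D12, -0.31 to 2.81 for Tbx20 in pulsed cells from D6 to D8, and -0.25 to 2.88 for its difference of effect between D8 and D6. Tbx2 at D6 was called in all 16 alternatives, with adjusted p up to 0.00484. With 2 libraries in a group, the lone library left is assumed to vary like the other groups. Deviations of libraries with adjacent numbers correlated above 0 at D6 and D8 but not at D12. At D8 and D12 the deviations within a group of 2 are equal and opposite. Each of these days thus gives 1 value, which cannot verify the pairing. The block left 1 member called at D6 (667 genes in all), and apart from Tbx20 from D6 to D8 it changed no call on a count of members. Crossing the D12 pairs, dropping pulsed D8 library 18, dropping the D5 controls and the block on D6 libraries alone were chosen after seeing the data. Ranking similar genes by Spearman's rho was not run, and rho for the genes named ran from 0.679 to 1. Depth limits Tbx1 at D8 and D12, where controls had 1 to 12 counts.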

Other observations

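Of 10 other T-box genes in the table, 7 passed the filter, and edgeR called 1 higher and none lower at D6 (2 at an unadjusted p under 0.05). The one called was Tbx10, with 1 count over 3 D6 controls and 34 over 3 pulsed libraries, a ratio of 33.8 with a 95% interval of 5.67 to 1373 for counting error (edgeR adjusted p = 0.0403). Tbx10 had 0 or 1 count in every library outside the pulsed D6 group and passed the filter only through that group, so the call is no more than a description. T, the brachyury gene of the primitive streak, had 120 counts in D6 controls and 756 in pulsed D6 cells, a log2 fold change of 2.66 ± 0.95 (edgeR, adjusted p = 0.163). It was at 3 and 4 counts in control and pulsed cells at D8. Eomes, another early mesendoderm factor, had 2989 counts in D6 controls and 1268 in pulsed cells (-1.25 ± 0.82, edgeR adjusted p = 0.539). In the authors' deposited D6 table T and Eomes have adjusted p values of 1.02e-07 and 0.00886.

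Mga, which carries a T-box beside a MYC-family domain, had group means from 238 to 331 CPM and a D6 log2 fold change of -0.07 ± 0.13 (edgeR, adjusted p = 0.877). It was lower in pulsed D6 cells than in D5 controls by -0.34 ± 0.12 (edgeR, adjusted p = 0.0481). Tbx6, Tbx15 and Tbr1 had 39, 17 and 19 summed counts in pulsed D6 cells against 29, 25 and 25 in controls. In controls Tbx6 rose from D6 to D8 by 1.64 ± 0.58 (edgeR, adjusted p = 0.0429), from 0.431 to 1.36 CPM, and had 3.61 CPM at D12. Tbx19, Tbx21 and Tbx22 did not pass the filter. Tbx22 had 26 counts in pulsed D12 library 20, 3 in pulsed D12 library 10 and 0 in the D12 controls.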
